A study of Mus musculus with 4 samples.

Results

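Iron uptake and storage was followed through 8 genes, Tfrc, Steap3, Slc11a2, Fth1, Ftl1, Slc40a1, Aco1 and Ireb2, in primary mouse embryonic fibroblasts that lacked most CH1 domains of p300 and CBP or were wild type. Every probe set whose platform symbol field held one of these symbols as a whole symbol was taken. This gave 22 of the 22690 probe sets on the array, and 8 of 13319 gene symbols named there, namely 6 for Tfrc, 3 each for Steap3, Slc11a2 and Ftl1, 2 each for Fth1, Slc40a1 and Aco1, and 1 for Ireb2. Of these, 3 are Affymetrix control probe sets for Tfrc, placed at the 3′ end, the middle and the 5′ end of the transcript. All 3 Ftl1 probe sets also carry the symbol of its pseudogene Ftl1-ps2, and 1 of them carries microRNA symbols as well, so their signal cannot be assigned to Ftl1 alone.

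The 4 groups were tri-CH1 in hypoxia, wild type in hypoxia, tri-CH1 in normoxia and wild type in normoxia, with 1 array each. Tri-CH1 cells carry a CH1 deletion in both p300 alleles and in 1 CBP allele, so 1 CBP allele keeps its CH1 domain; wild-type cells carry no such deletion. Fibroblasts came from mid-gestation embryos and were held while subconfluent for 6 h at 0.1% oxygen (hypoxia) or 21% oxygen (normoxia), all with 5% carbon dioxide at 37 °C and in medium equilibrated overnight to the same gas. How many embryos or cultures lie behind each array is not given in the sources used here. Replicate arrays were not part of the design, so the values below carry no replicate error, no difference was tested, and precision is limited by the number of arrays.

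Cells take up iron mainly as transferrin-bound iron through the transferrin receptor, reduce it in the endosome, pass it to the cytosol, store the surplus in ferritin and release it through ferroportin. Iron regulatory proteins bind hairpins called iron-responsive elements in several of these mRNAs when iron is scarce; they stabilise the Tfrc mRNA and block translation of the ferritin mRNAs. An expression array reads the level of the Tfrc mRNA, on which the first of these controls acts, and does not read the second. It does not separate the stability of an mRNA from its transcription. HIF, the oxygen-regulated transcription factor that binds the CH1 domain of p300 and CBP, is known to act on the Tfrc promoter.

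The bases upstream of annotated starts of Tfrc, Fth1 and Ftl1 are shown because the receptor and the ferritin genes carry the values described below. Sequences are from RefSeq (GRCm38.p6), each the 250 bases before a start. They run 5′ to 3′ on the gene's strand, with capitals marking the HIF core motifs ACGTG and GCGTG, or their reverse complements CACGT and CACGC.
Tfrc (chr16:32608872-32609121, plus strand): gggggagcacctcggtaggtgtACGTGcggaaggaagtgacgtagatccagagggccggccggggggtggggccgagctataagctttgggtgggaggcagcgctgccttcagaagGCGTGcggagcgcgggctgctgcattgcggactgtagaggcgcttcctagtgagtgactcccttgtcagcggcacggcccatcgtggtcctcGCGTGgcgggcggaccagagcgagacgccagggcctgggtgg
Fth1 (chr19:9982396-9982645, plus strand): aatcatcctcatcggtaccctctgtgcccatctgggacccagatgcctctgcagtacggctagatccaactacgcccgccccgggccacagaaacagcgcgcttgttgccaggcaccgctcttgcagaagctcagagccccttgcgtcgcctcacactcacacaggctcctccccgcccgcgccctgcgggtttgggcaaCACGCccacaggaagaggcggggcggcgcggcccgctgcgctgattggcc
Ftl1 (chr7:45459887-45460136, minus strand): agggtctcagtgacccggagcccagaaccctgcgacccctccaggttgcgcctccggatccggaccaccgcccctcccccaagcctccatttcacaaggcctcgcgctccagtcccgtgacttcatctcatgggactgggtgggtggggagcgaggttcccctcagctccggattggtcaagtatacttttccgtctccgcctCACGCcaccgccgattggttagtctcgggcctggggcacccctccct
The Tfrc window holds ACGTG at position -228 and GCGTG at positions -134 and -42, counted to the first base of the match with -1 as the last base before the start. An upstream Tfrc start has a window of its own with 2 copies of GCGTG on the opposite strand. In the Fth1 window shown a copy of GCGTG lies at -50 and in Ftl1 at -47, both on the opposite strand. The window of another Fth1 start, farther upstream, holds neither motif. Of 4 Steap3 windows 1 holds GCGTG, at -45 on the opposite strand. Windows were found for 6 of the 8 genes, 11 in all. ACGTG occurred in Tfrc only among these 6 genes, and no copy of either motif was found for Aco1 and Ireb2. On either strand, 16.6% of all 32851 promoter windows of this length hold ACGTG, 28.2% hold GCGTG and 38.6% hold at least 1 of them; a CACGTG counts as ACGTG on both strands. A match describes the letters and is not a binding site.

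Signals are intensities on a linear scale that the authors scaled to a target of 500 on every array. Before log2 changes were taken, signals under 200 were raised to 200. To be counted, a probe set had to reach 500 on at least 1 of the 2 arrays compared; it rose or fell if it then differed by 2-fold or more. For scale, the log2 changes of 2 probe sets of a gene, over 1505 genes, differed with an SD per probe set of 0.25 for the hypoxia change in wild type, 0.29 for that in tri-CH1, 0.33 for the genotype difference in normoxia and 0.31 for that in hypoxia. This spread covers error between probe sets and not variation between cultures.

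The arrays each had between 6066 and 6328 probe sets at 500 or more. Hypoxia was visible in the HIF target Bnip3, at 10422 in tri-CH1 and 10530 in wild type in hypoxia, against 494 in tri-CH1 and 403 in wild type in normoxia. The other hypoxia check genes, each by its brightest probe set, also rose. Log2 changes in tri-CH1 and wild type were 3.31 and 4.18 for Egln3, 2.63 and 2.63 for Slc2a1, and 1.37 and 2.01 for Vegfa. The other Vegfa probe set had the opposite order, with 2.35 in tri-CH1 and 1.61 in wild type. Dimmer Slc2a1 probe sets gave 2.91 and 2.81 in tri-CH1 and 2.68 and 2.85 in wild type. The dimmer Egln3 probe set kept the order, with 0.99 in tri-CH1, where it stayed under 500, and 2.35 in wild type. In hypoxia the brightest probe set of each check gene was lower in tri-CH1 than in wild type. The log2 differences were -0.87 for Egln3, -0.94 for Slc2a1 and -0.98 for Vegfa, against -0.01 for Bnip3. The only Crebbp probe set with 1 symbol stayed between 29.6 and 87.7, and whether it lies in the deleted domain is not given in the sources used here, so it does not check the genotype. The array for wild type in normoxia had a lot number of its own and the lowest scaled background, 139, against 393 for tri-CH1 hypoxia, 343 for tri-CH1 normoxia and 246 for wild-type hypoxia. All 10 fibroblast markers examined reached 500 on at least 1 array. None of the 6 erythroid markers with a probe set did, and the 6 together summed to 313 to 490 per array. Of 7 macrophage markers Csf1r and Lyz2 reached 500, on all 4 arrays, while Itgam and Ptprc stayed under 200; of 4 endothelial markers 0 reached it.

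**Figure D1:**
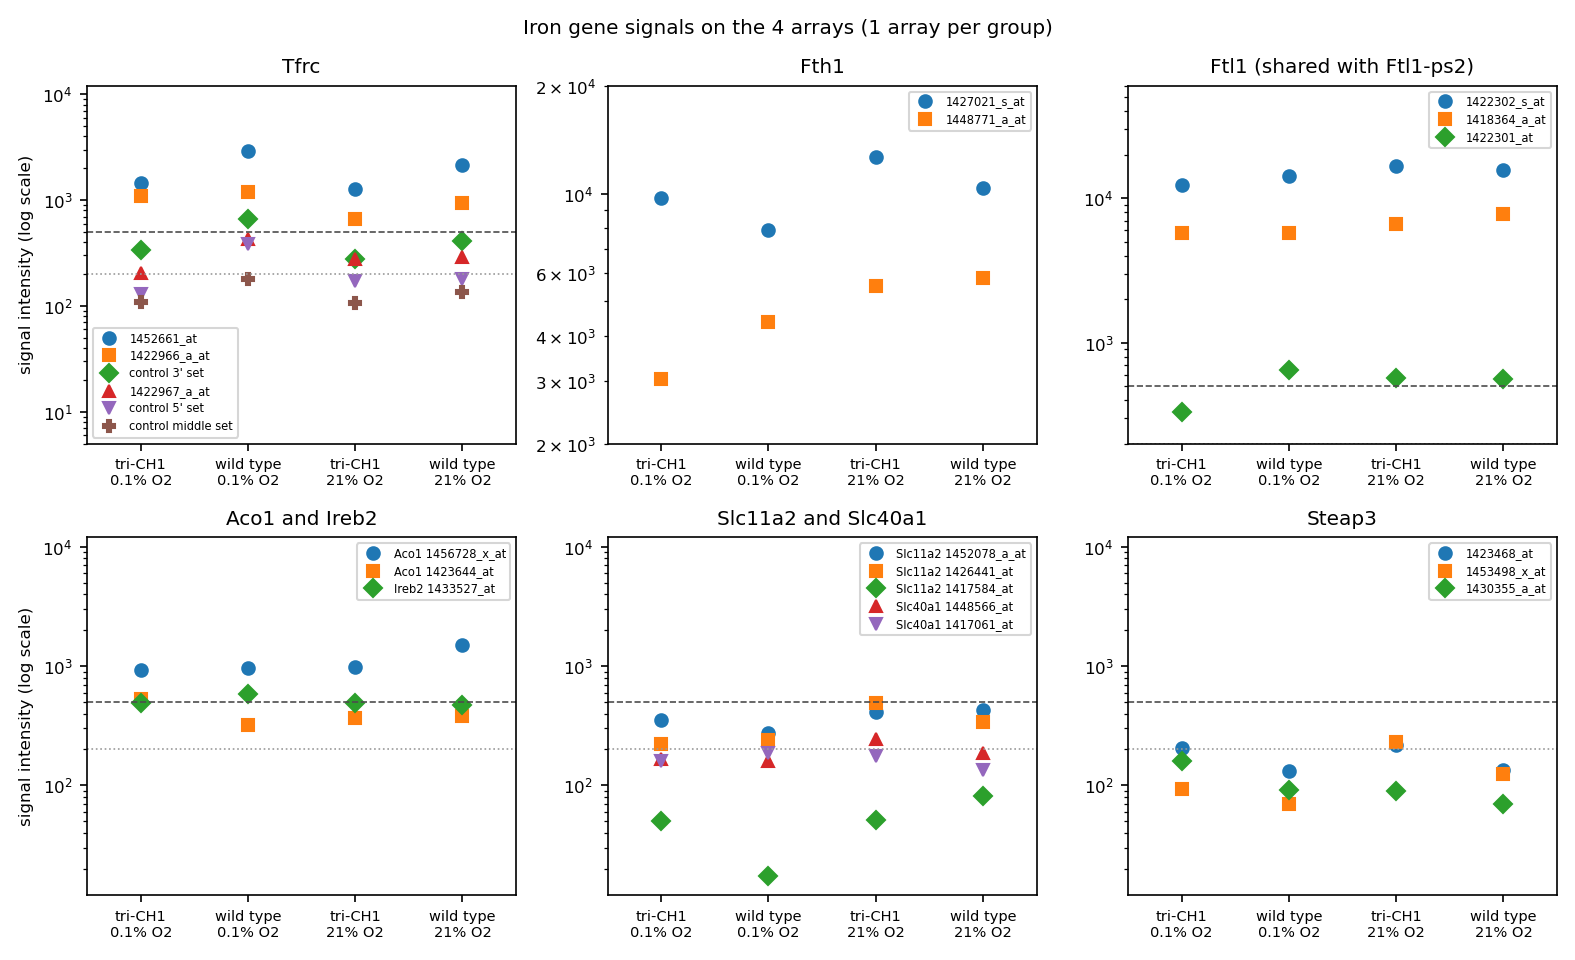
Signal intensity (log scale) of the 22 probe sets on each of the 4 arrays, 1 point per probe set and array, with a dashed line at 500 and a dotted line at 200. The ferritin probe sets other than 1 for Ftl1 sit between 3025 and 16865, Tfrc straddles the dashed line, and all Slc11a2, Slc40a1 and Steap3 points lie under it.

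A signal of 500 was reached on at least 1 array by 11 of the 22 probe sets, from 5 of the 8 genes: 3 for Tfrc, both for Fth1, all 3 for Ftl1, both for Aco1 and the 1 for Ireb2. On all 4 arrays it was reached by 7. Just inside this limit was an Aco1 probe set (1423644_at) with a highest signal of 525. Just outside was a Slc11a2 probe set (1426441_at) with a highest signal of 486. Of the other 11 probe sets, 4 stayed under 200 on every array, among them the control probe set for the middle of Tfrc.

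Tfrc encodes the transferrin receptor, which brings iron into the cell by endocytosis. Its brightest probe set (1452661_at) had a signal of 1466 in tri-CH1 and 2931 in wild type in hypoxia, and of 1286 in tri-CH1 and 2139 in wild type in normoxia. Both tri-CH1 arrays were thus under both wild-type arrays, and within each genotype the hypoxia array was the brighter. The next probe set (1422966_a_at) read 1086 in tri-CH1 and 1199.5 in wild type in hypoxia, and 658 in tri-CH1 and 947 in wild type in normoxia. Here the tri-CH1 hypoxia array stood above wild-type normoxia, so this probe set separated the oxygen levels more than the genotypes. The 3′ control probe set read 338 in tri-CH1 and 666 in wild type in hypoxia, and 275 in tri-CH1 and 408 in wild type in normoxia, the order of the brightest probe set.

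With hypoxia, no Tfrc probe set passed 2-fold. The log2 change in wild type was 0.45 for the brightest probe set, 0.34 for the next and 0.71 for the 3′ control. In tri-CH1 it was 0.19 and 0.72 for the first pair, in the opposite order, while the 3′ control did not reach 500 on either tri-CH1 array. Taken without the floor, the signal was higher in hypoxia for 6 of 6 Tfrc probe sets in wild type and for 4 of 6 in tri-CH1. The 6 probe sets read 1 transcript on the same arrays, so they are not independent.

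Between genotypes, 1 Tfrc probe set fell in tri-CH1. In hypoxia the brightest was 2.0001-fold lower in tri-CH1, a log2 difference of -1.0001 that sits on the limit itself. It was -0.96 after quantile normalization and -0.98 after cyclic loess, both under 2-fold. The 3′ control had -0.98 and the second brightest -0.14, so the Tfrc probe sets differ by more than the SD of 0.31 between probe sets of a gene. In normoxia the brightest had -0.73 and the second -0.53. Without the floor, all 6 Tfrc probe sets were lower in tri-CH1 at each oxygen level. On the log2 scale the gap was between 0.14 and 1.57 in hypoxia and between 0.06 and 0.73 in normoxia. After quantile normalization and cyclic loess 6 of 6 stayed lower at each oxygen level, a check chosen after seeing the data. Scaling to the same median lowers all these differences by 1 amount per oxygen level, so it could not turn their sign. At the dimmer end the 5′ control gave 130.0 in tri-CH1 and 386 in wild type in hypoxia, with 172 in tri-CH1 and 179.5 in wild type in normoxia. In bulk RNA, fewer cells of a type and less RNA per cell cannot be told apart.

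Steap3, an endosomal ferrireductase, and Slc11a2, the transporter DMT1 that carries ferrous iron out of the endosome, were dim. The highest Steap3 signal on any array was 233, in tri-CH1 normoxia. For Slc11a2 the probe set 1426441_at read 222 in tri-CH1 and 240.5 in wild type in hypoxia, and 486 in tri-CH1 and 342 in wild type in normoxia. Another Slc11a2 probe set (1452078_a_at) read 352.5 in tri-CH1 and 276 in wild type in hypoxia, and 413 in tri-CH1 and 427 in wild type in normoxia. Both had lower signals in hypoxia in each genotype, with log2 changes in tri-CH1 of -1.13 and -0.23 and in wild type of -0.51 and -0.63. Neither reached 500, so neither counts as a fall; the third Slc11a2 probe set read 81.1 at most.

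Fth1 encodes the ferritin heavy chain, which oxidises iron for storage. Its brighter probe set (1427021_s_at) read 9743 in tri-CH1 and 7921 in wild type in hypoxia, and 12686 in tri-CH1 and 10397 in wild type in normoxia. The other (1448771_a_at) read 3025 in tri-CH1 and 4364 in wild type in hypoxia, and 5519 in tri-CH1 and 5816 in wild type in normoxia. On both probe sets each hypoxia array was under the normoxia array of its genotype, and the genotypes stood in opposite orders. The log2 change with hypoxia was -0.38 and -0.87 in tri-CH1 and -0.39 and -0.41 in wild type, all under 2-fold. Of all probe sets bright enough, 2.08% lay as low as -0.87 or lower in tri-CH1, while 16.6% lay as low as -0.38.

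Ftl1 encodes the ferritin light chain, which helps form the iron core. The brightest probe set for Ftl1 and its pseudogene (1422302_s_at) read 12301 in tri-CH1 and 14354.5 in wild type in hypoxia, and 16865 in tri-CH1 and 15711 in wild type in normoxia. A second (1418364_a_at) read 5711 in tri-CH1 and 5759 in wild type in hypoxia, and 6642 in tri-CH1 and 7771 in wild type in normoxia. Hypoxia arrays were again under normoxia arrays, with log2 changes of -0.46 and -0.22 in tri-CH1 and -0.13 and -0.43 in wild type. The third (1422301_at), which also carries microRNA symbols, read 333 in tri-CH1 and 645 in wild type in hypoxia, and 566 in tri-CH1 and 557 in wild type in normoxia. Only its tri-CH1 hypoxia array stood apart, for log2 changes of -0.77 in tri-CH1 and 0.21 in wild type. Counted over the 5 ferritin probe sets, all 5 were lower with hypoxia in tri-CH1 and 4 of 5 in wild type. Of all bright probe sets, 54.0% were below 0 in tri-CH1 and 56.9% in wild type. The ferritin medians were -0.46 in tri-CH1 and -0.39 in wild type, against -0.039 and -0.056 over all bright probe sets. These probe sets read Fth1 and Ftl1 on the same arrays, so they are not independent. No ferritin probe set passed 2-fold, and quantile normalization and cyclic loess turned the sign of no ferritin or Tfrc hypoxia change given here. Scaling to the same median could not turn any of them, because each lay farther from 0 than its shift.

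Slc40a1 encodes ferroportin, the known exporter of iron from cells. Its 2 probe sets read 165 and 159 in tri-CH1 and 159.9 and 187 in wild type in hypoxia, and 246 and 177 in tri-CH1 and 188 and 135 in wild type in normoxia. Apart from the 246 in tri-CH1 normoxia, all these signals were under 200, and no order can be read from them.

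Aco1 encodes iron regulatory protein 1, which doubles as cytosolic aconitase, and Ireb2 encodes iron regulatory protein 2, which is degraded when iron and oxygen are plentiful. The brighter Aco1 probe set (1456728_x_at) read 931.5 in tri-CH1 and 960.5 in wild type in hypoxia, and 982 in tri-CH1 and 1493 in wild type in normoxia. Wild-type normoxia stood alone there, and the log2 change with hypoxia was -0.08 in tri-CH1 and -0.64 in wild type. The other (1423644_at) had its highest value on another array, with 525 in tri-CH1 and 323 in wild type in hypoxia, and 365 in tri-CH1 and 380 in wild type in normoxia. For this probe set the genotype difference in hypoxia was 0.70 on the log2 scale, against -0.04 for the brighter. Ireb2 read 491 in tri-CH1 and 585 in wild type in hypoxia, and 494 in tri-CH1 and 474 in wild type in normoxia, a log2 change with hypoxia of 0.30 in wild type.

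**Figure D2:**
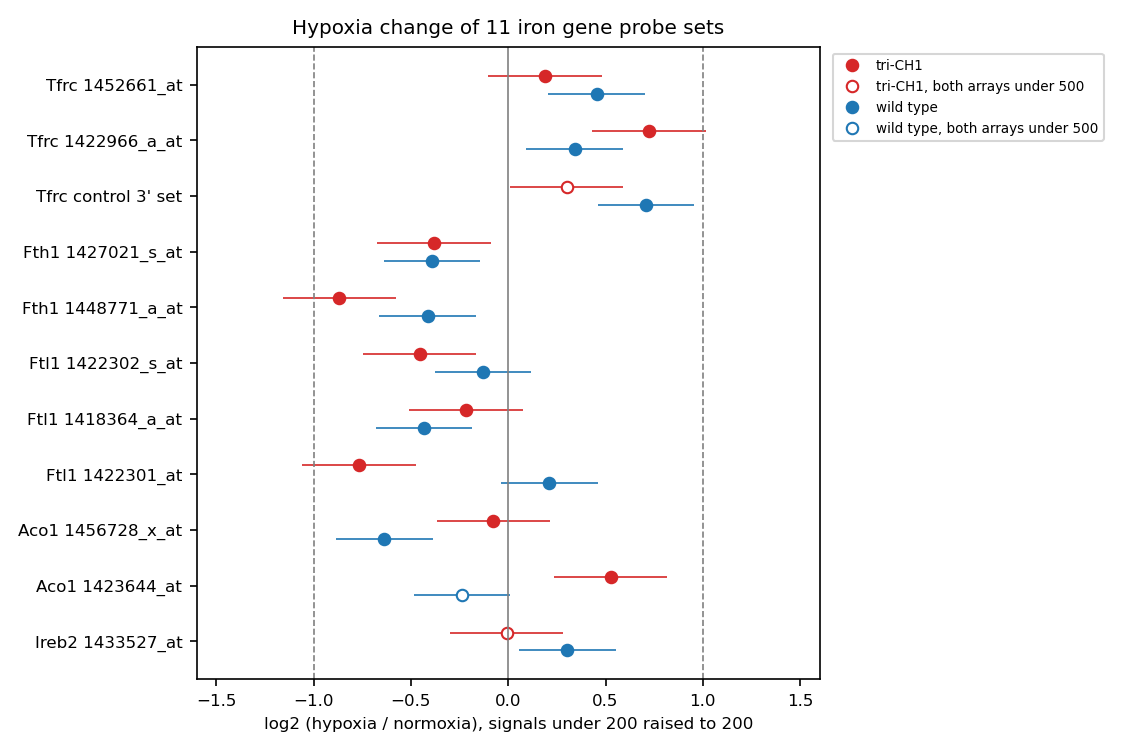
Log2 change of hypoxia over normoxia for the 11 probe sets that reached 500, in tri-CH1 (red, upper) and wild type (blue, lower), with bars of 1 SD between probe sets of a gene and dashed lines at 2-fold. Open points had both arrays under 500. Tfrc points lie right of 0 and ferritin points left of it, except Ftl1 1422301_at in wild type at 0.21.

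Across the genes, hypoxia moved no iron probe set past 2-fold in either genotype. In tri-CH1 this was 0 of 9 bright enough to count, where 4.41% of all bright non-control probe sets passed. In wild type it was 0 of 10, where 4.40% passed. With lists this short both counts are near those shares and are no result about the iron genes. In tri-CH1, 3 of the 9 were above 0 and 6 below, with a median of -0.22. In wild type 5 were above and 5 below, with a median of 0.04. Over all bright probe sets 54.0% were below 0 in tri-CH1 and 56.9% in wild type. The wild-type comparison uses the array of the other lot, and its part in these values was not tested.

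**Figure D3:**
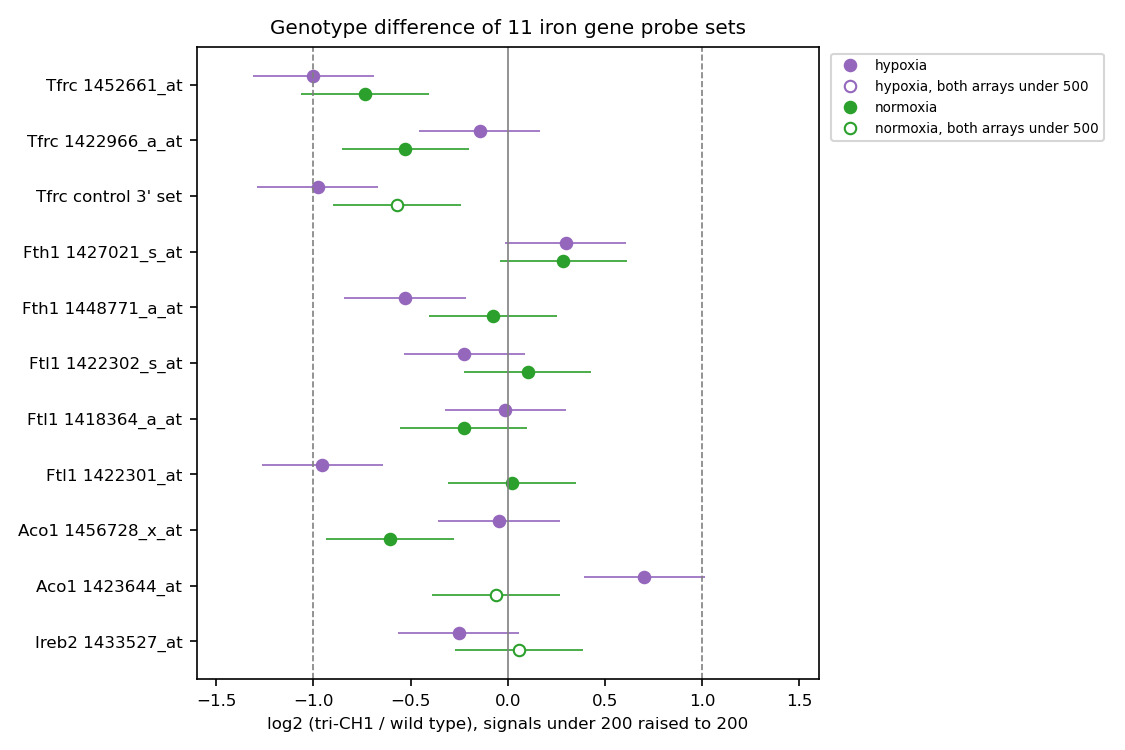
Log2 difference of tri-CH1 over wild type for the same 11 probe sets, in hypoxia (purple, upper) and normoxia (green, lower), with bars of 1 SD between probe sets of a gene and dashed lines at 2-fold. Open points had both arrays under 500. The brightest Tfrc probe set lies at -1.0001 in hypoxia, and the 3′ Tfrc control and Ftl1 1422301_at lie just inside the line.

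By genotype, 1 of 11 probe sets in hypoxia passed 2-fold, the Tfrc probe set at -1.0001, and none rose. Over all bright probe sets 3.82% were called lower and 7.41% in either direction. In normoxia 0 of 8 passed, against 7.18%. With lists this short both counts are near those shares and are no result about the iron genes. Of the 11 in hypoxia 9 were below 0, where 48.5% of all bright probe sets were. These 11 read 5 genes on the same arrays, so they are not independent. Fth1 and Aco1 each had 1 probe set above 0 and 1 below. The median of the 11 was -0.22, while that of all bright probe sets was 0.015. Values below 0 were 5 of 8 in normoxia, where 49.7% of all were, with a median of -0.15 against 0.0037. Another scaling of the arrays to the same median moves the median of all probe sets in normoxia to -0.24, and turns below 0 there Ftl1 1422301_at and 1422302_s_at, from 0.02 and 0.10, and Ireb2, which was under 500 on both arrays, from 0.06. Quantile normalization and cyclic loess also turn 1422301_at in normoxia below 0, and they turn Ftl1 1418364_a_at in hypoxia from -0.01 to 0.06 and 0.05, which leaves 8 of 11 below 0 in hypoxia. Quantile normalization turns Fth1 1448771_a_at in normoxia from -0.08 to 0.01. The hypoxia comparison between genotypes does not use the array of the other lot, while the normoxia comparison does.

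The hypoxia change in tri-CH1 minus that in wild type could be set out for 8 probe sets bright enough in both genotypes. It was negative for 4 and positive for 4, from -0.98 to 0.56, with a median of -0.13 against 0.030 over 6118 probe sets. Probe sets of 1 gene took both signs for Tfrc, at -0.27 and 0.38, and for Ftl1, between -0.98 and 0.21. For Fth1 the values were 0.01 and -0.45. The SD between probe sets of a gene for this quantity was 0.37, and 4 of the 8 lie farther from 0 than that: Ftl1 1422301_at at -0.98, Aco1 1456728_x_at at 0.56, Fth1 1448771_a_at at -0.45 and Tfrc 1422966_a_at at 0.38. Scaling to the same median moves the median of all probe sets for this quantity to 0.17 and that of the 8 to 0.015, above 0. The median of the 8 was -0.063 after quantile normalization. A minimum of 250 gave -0.29 over 14 probe sets, 8 below 0 and 6 above. All these differences use the array of the other lot, wild type in normoxia, and the part of the lot was not tested.

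The genes most like Tfrc, as read by its brightest probe set (1452661_at) alone, were sought over the 4 arrays among 4644 other genes that reached 500. Likeness was the smallest Euclidean distance between log2 signals centred on each gene's own mean. The second brightest Tfrc probe set, with another order of arrays, was not used. Nearest was Krt18, a keratin of simple epithelia, at a distance of 0.067. It read 305.5 in tri-CH1 and 588 in wild type in hypoxia, and 269 in tri-CH1 and 424 in wild type in normoxia. Pigp, of the GPI-anchor pathway, followed at 0.078, then Mical2, an actin-modifying oxidase, at 0.11, the dynein light chain gene Dynlt3 at 0.13 and the kinase gene Ripk3 at 0.13. With 4 points a close match is easily found, and these distances are a description only.

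Since Krt18 is also an epithelial marker, the 4 epithelial markers with a probe set are given beside the Tfrc values. Their summed signal was 549 in tri-CH1 and 936 in wild type in hypoxia, and 828 in tri-CH1 and 840 in wild type in normoxia. Krt8 read 192 in tri-CH1 and 332 in wild type in hypoxia, and 502 in tri-CH1 and 398 in wild type in normoxia. In normoxia the genotypes thus stood in opposite orders for Krt8 and Krt18. Both keratins reached 500 on 1 array each, while Epcam and Cdh1, which define epithelial cells, were at 36.7 or less on every array. Of the 10 fibroblast markers, 7 were higher and 3 lower in tri-CH1 at each oxygen level, and 6 and 4 in normoxia with quantile normalization or the same median. The markers with the widest gaps, chosen after their values were seen, went opposite ways. Lum read 2684 in tri-CH1 and 419 in wild type in hypoxia, and 1561.5 in tri-CH1 and 355 in wild type in normoxia. Thy1 read 3274 in tri-CH1 and 12389 in wild type in hypoxia, and 3837 in tri-CH1 and 13148 in wild type in normoxia. The summed fibroblast signal, to which Vim and Col1a2 add most, was 126018 in tri-CH1 and 112272 in wild type in hypoxia, and 125471 in tri-CH1 and 115737 in wild type in normoxia. The part of these marker differences in the lower Tfrc signal of tri-CH1 was not tested.

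**Figure D4:**
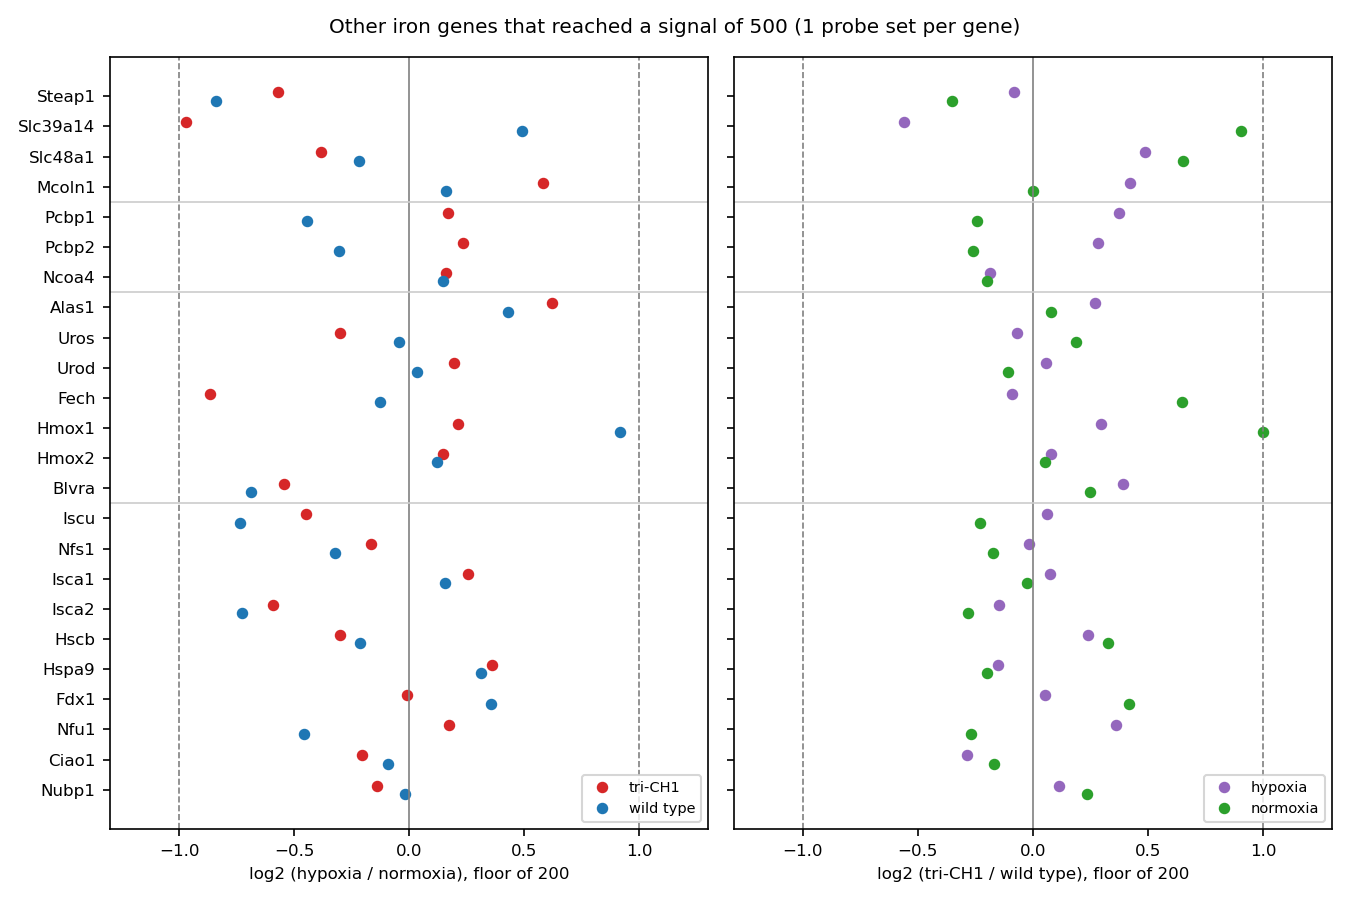
Log2 change with hypoxia (left; tri-CH1 red, wild type blue) and by genotype (right; hypoxia purple, normoxia green) for the 24 other iron genes that reached 500 on any array, 1 point per gene and comparison, with dashed lines at 2-fold. Grey lines separate transport, chaperones and ferritin turnover, heme, and iron-sulfur clusters. Only Hmox1 touches a dashed line, at 1.0009 in normoxia.

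Beyond the 8 genes, a list of 62 symbols covered other iron transport, iron chaperones, heme and iron-sulfur cluster genes, with 47 on the array by that name and 24 at 500 on any array. None passed 2-fold with hypoxia, 0 of 24 in tri-CH1 and 0 of 23 in wild type, where 4.18% and 4.24% of all genes did. Median log2 changes were -0.08 in tri-CH1 and -0.04 in wild type, against -0.039 and -0.057 over all genes. By genotype 1 of 23 rose in normoxia, where 3.16% of genes were called higher and 6.65% in either direction, and 0 of 22 passed in hypoxia, where 7.06% did in either direction. The gene that rose was Hmox1, heme oxygenase 1, which frees iron from heme. It read 1280.1 in tri-CH1 and 1041 in wild type in hypoxia, and 1105 in tri-CH1 and 552 in wild type in normoxia, so that wild-type normoxia stood alone at the low end. The rise of 2.0013-fold sits on the limit and drops out when arrays are scaled to the same median. It is read against the array of the other lot, and the part of the lot was not tested.

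The genes named next were chosen after their values were seen. Of the 10 iron-sulfur cluster genes, 7 were below 0 with hypoxia in each genotype, with medians of -0.15 in tri-CH1 and -0.15 in wild type. Over all bright genes 54.1% were below 0 in tri-CH1 and 56.9% in wild type, so a count of 7 of 10 is near the background, and it was 6 or 7 under the other scalings. Iscu, the scaffold on which clusters are built, read 1192 in tri-CH1 and 1143 in wild type in hypoxia, and 1624 in tri-CH1 and 1903 in wild type in normoxia, so both hypoxia arrays were under both normoxia arrays. The cluster assembly gene Isca2 had log2 changes of -0.59 in tri-CH1 and -0.73 in wild type. Alas1, the first enzyme of heme synthesis, went the other way, with 1022 in tri-CH1 and 848 in wild type in hypoxia, and 665 in tri-CH1 and 630 in wild type in normoxia. Fech, which inserts iron into heme, had log2 changes of -0.86 in tri-CH1 and -0.13 in wild type, its tri-CH1 normoxia signal of 1911 being the highest. The metalloreductase family gene Steap1 read 613 in tri-CH1 and 649.5 in wild type in hypoxia, and 909 in tri-CH1 and 1161 in wild type in normoxia.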

How the data were processed

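The deposited values are signal intensity on a linear scale, 1 per probe set. Per the labels, the authors used the Affymetrix statistical algorithm with background correction and multiplied each array by 1 factor, between 3.46 and 10.3, to a target of 500; software names and versions are not given in the sources used here. A higher factor also raises the background, which limits dim probe sets such as those of Slc11a2, Slc40a1 and Steap3.

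Names of probe sets are those of the platform annotation. For genes outside the 8, and for Tfrc in the search for similar genes, the probe set with 1 symbol and the highest mean signal was used, giving 12393 genes. Floors, limits and calls are described with the results, and shares of calls are over all non-control probe sets or all genes. Members, lists and limits were chosen with earlier results of these data known. The rule for names was all probe sets of the 8 genes, listed iron genes past 2-fold, and the 5 genes nearest to Tfrc. The calling step was tested on simulated data. Alternatives were floors of 100, 400 and none, cyclic loess, quantile normalization, scaling to the same median, minimum signals of 250 and 1000, the mean over probe sets and plain _at probe sets. Tools were Python 3.11.15, numpy 2.4.6, pandas 2.3.3, matplotlib 3.10.9, R 4.3.3 and limma 3.58.1.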

Additional observations from a re-analysis of the deposited data

Results flagged for a closer look

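Among those bright enough in both genotypes, the hypoxia changes had opposite signs for 1 of 8 probe sets, for ferritin, and 5 of 23 other iron genes. The share of all probe sets or genes with opposite signs was not computed, so these counts are no result about the iron genes. With 1 array per group these differences were not tested. Each uses the array for wild type in normoxia, which had a lot of its own, and the part of the lot was not tested. Ftl1 1422301_at, shared with Ftl1-ps2 and microRNA symbols, had log2 changes of -0.77 in tri-CH1 and 0.21 in wild type, a difference of -0.98. The metal transporter gene Slc39a14 had -0.97 in tri-CH1 and 0.49 in wild type, a difference of -1.46. It read 405 in tri-CH1 and 596.5 in wild type in hypoxia, and 794 in tri-CH1 and 424 in wild type in normoxia. The iron chaperone genes Pcbp1 and Pcbp2 differed by 0.62 and 0.54, with 0.17 and 0.23 in tri-CH1 and -0.45 and -0.31 in wild type. The iron-sulfur cluster gene Nfu1 differed by 0.63, with 0.17 in tri-CH1 and -0.46 in wild type. For the ferredoxin gene Fdx1 the difference was -0.37, with -0.01 in tri-CH1 and 0.36 in wild type; the tri-CH1 value was 0.02 with cyclic loess and 0.06 with the same median, so the signs were then alike. The other 5 differences had opposite signs under all 3 other scalings, a check chosen after seeing the data. Scaling to the same median moves the changes of Pcbp1, Pcbp2 and Nfu1 away from 0 in both genotypes, so it could not turn them. It shifts those of Ftl1 1422301_at and Slc39a14 by less than they lie from 0, so it could not turn these either.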

How the results depend on the processing

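Among the iron uptake and storage probe sets, the count past 2-fold between genotypes in hypoxia was 1, and 2 with quantile normalization, cyclic loess or a minimum of 250, and 3 with scaling to the same median. Quantile normalization and cyclic loess dropped the brightest Tfrc probe set and brought in the 3′ Tfrc control and Ftl1 1422301_at, and scaling to the same median called all 3; their log2 differences as deposited were -1.0001, -0.98 and -0.95. A minimum of 250 added Tfrc 1422967_a_at at 2.06-fold lower. With hypoxia in tri-CH1 the count was 0, and 1 with a minimum of 250, which let in Slc11a2 1426441_at at 2.19-fold lower. Of the other iron genes, the count by genotype in normoxia was 1, and 2 with a minimum of 250 (Hfe joined Hmox1) and 0 with the same median; in hypoxia it was 0, and 1 (Slc25a28) with a minimum of 250. With plain _at probe sets Steap1 fell with hypoxia in both genotypes, for counts of 1 in tri-CH1 and 1 in wild type, where it is another Steap1 probe set that is read. The called Tfrc value (1452661_at in hypoxia) lay between -1.08 and -0.96 under the floors, minimums and scalings run. Floors, minimums and the same median could not turn its sign. The sign of Hmox1 was not followed in this way. Single log2 values moved by more than the spread between probe sets for 25 of 110 with no floor. The count was 19 with a floor of 100 and 15 with a floor of 400. With the mean over probe sets it was 5 of 28, and under each of the 3 other scalings 0 of 110. The 110 include values held at 0 by the floor under every scaling. Scaling to the same median shifts each comparison by less than this spread, so its count of 0 was fixed in advance. The minimums of 250 and 1000 leave each log2 value as it is, and plain _at probe sets were run for the counts of other iron genes alone. The hypoxia change in tri-CH1 minus that in wild type had a median of -0.13 over the bright probe sets, and between -0.29 (minimum of 250) and 0.015 (same median) over the alternatives run. No paired analysis was possible because each group holds 1 array, and leaving out an array would leave no comparison. Signal over background limits every probe set near 200 to 500.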
